A study of Oncorhynchus tshawytscha with 17 samples.

Results

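The fish described here were 6 of 17 Chinook salmon, the Pacific species Oncorhynchus tshawytscha, whose hindgut RNA was sequenced. All 6 carried the label Probiotics, and they were chosen by the number in their titles, which gave 3 fish of one number (written here as pro115A, pro115B and pro115C, together pro115) and 3 of another (pro139A, pro139B and pro139C, together pro139). The question was which hindgut genes differed between fish of these numbers under one treatment, over all genes with an identifier. The series also held 6 healthy control fish, with title numbers 12 and 35 (ctl12 and ctl35), and 5 fish given antibiotics, with title numbers 67 and 91. The probiotic fish had been treated for 10 days and were then killed at once in an excess of clove oil. Both numbers shared the treatment, the diploid genotype, the tissue (hindgut, described as epithelia) and the extraction of total RNA with TRIzol. The probiotic strains and doses, the ages of the fish and the meaning of the title numbers are not stated in the labels. Nothing in the labels says whether the letters A to C mark separate tanks or days, so p-values measure only the spread between fish. In the main edgeR fit that spread was taken within the title numbers of all 17 fish. The SE and p-values of that fit therefore rest on control and antibiotic fish too, not on the 6 probiotic fish alone.

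The hindgut is the last stretch of the fish intestine. Its epithelium holds lysosome-rich enterocytes, which take up whole protein from the gut through the receptor cubilin with its partner amnionless and digest it in lysosomes, and enterocytes that bring bile acids back into the body. Around the gut of salmonids lies scattered pancreatic tissue among fat, and the gut wall below the epithelium holds muscle, vessels, nerves and immune cells.

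Levels are given as CPM, the count of a gene per 1e6 counts of its library, after TMM scaling, a correction for library composition, and always in the order A, B, C. The tissue markers fitted the label: vil1, the microvillus protein villin, stood at 1611, 1362 and 2705 CPM in the pro115 fish and 2079, 2237 and 2101 CPM in the pro139 fish, and fabp6, which carries bile acids inside ileal enterocytes, at 2484, 1028 and 1799 and 3206, 1747 and 4288 CPM. Markers of other tissues were present too, among them those of exocrine pancreas, liver and smooth muscle, and their values stand beside the results below. Counts on named genes came to 47.2, 28.6 and 42.9 M (1e6) for pro115A, pro115B and pro115C and to 61.1, 38.2 and 57.5 M for pro139A, pro139B and pro139C (exact permutation p = 0.3, 2-sided, where 0.1 is the smallest p that 3 fish against 3 allow).

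No gene passed the test between the numbers. Of 28797 genes tested, 0 (0%) had an edgeR adjusted p under 0.05, and the smallest adjusted p was 0.483, a value shared by the genes of smallest p. An unadjusted p under 0.05 was found for 2744 genes (9.53% of those tested), of which 1460 (5.07%) had estimates higher in pro115 and 1284 (4.46%) had estimates higher in pro139. Limma-voom also called 0, and DESeq2 called 88 (0.307%), 18 higher in pro115 (0.0627%) and 70 higher in pro139 (0.244%), which are described with the genes they concern. In the same fit the control numbers 12 and 35 gave 0 calls (0%) and 1748 genes (6.07%) at an unadjusted p under 0.05. The antibiotic numbers 67 and 91 gave 0 calls (0%) and 2095 (7.28%). The genes tested there were those kept in the probiotic libraries, so these counts are not fully like for like. Without pro115C the count for pro115 and pro139 at an unadjusted p under 0.05 was 4510, and without each other probiotic fish it lay between 1880 and 2767. The CPM of the 3 fish of one number did not overlap that of the other 3 in 4357 genes (15.1%) for pro115 and pro139, in 13.3% for 12 and 35 and in 23.2% for 67 and 91, where one number has 2 fish. In what follows, higher and lower give the side of an estimate, and where a gene is said to have an unadjusted p under 0.05 it did not pass after adjustment.

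Fish of one number were no more alike than fish of different numbers beyond what the design can resolve. The mean Pearson correlation of log2 CPM across genes was 0.941 among the pro115 fish, 0.957 among the pro139 fish and 0.947 between the numbers (exact permutation p = 0.4 over 10 divisions, for a difference of 0.00273 within minus between). That difference was -0.00164 without pro139A and -0.0041 without pro139C. On the first component of the 1000 most variable genes, which held 31.2% of the variance, pro115B stood alone at 63.9 and the other 5 fish between -25.5 and 2.997. The second component (23.3%) ran from pro115C at -38.3 to pro139C at 48.5, the third (16.7%) set pro139B apart at -47.1 and the fourth (15.4%) set pro115A apart at -47.2. On none of these 4 components did the fish of one number all lie on one side of the fish of the other.

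**Figure D1:**
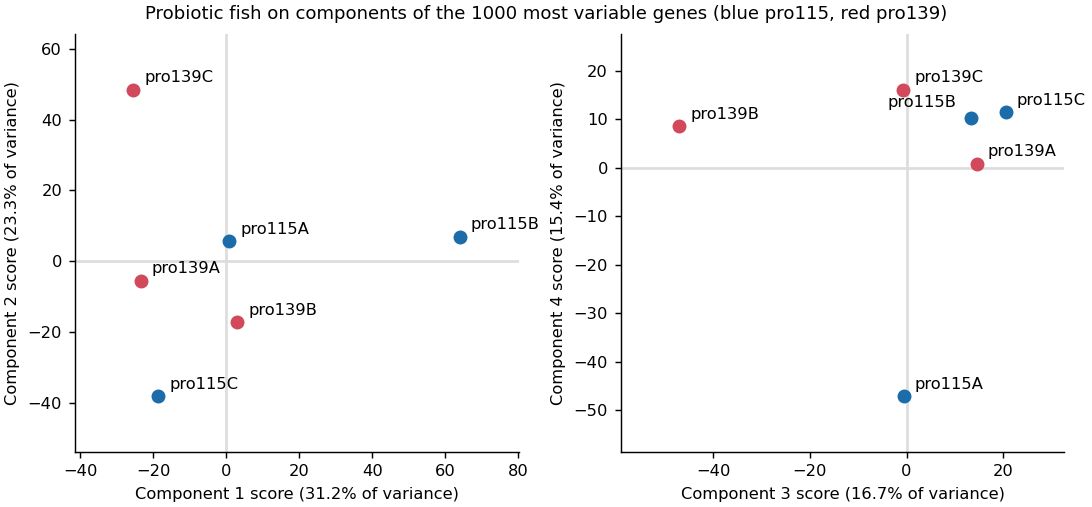
Scores of the 6 probiotic fish on components 1 and 2 (left) and 3 and 4 (right) of the 1000 most variable genes, with the share of variance on each axis, pro115 in blue and pro139 in red. Single fish lie at the ends of the axes, pro115B on component 1, pro139C and pro115C on component 2, pro139B on component 3 and pro115A on component 4, and the numbers do not separate.

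The 10 genes of smallest p, none of which passed after adjustment, were mostly low in pro115, and 8 of the 10 were higher in pro139 (47.0% of all tested genes). They were picked by a test of this same difference, so a lack of overlap between the numbers says nothing further about them. LOC112250296, for which no symbol was found, stood at 0.362, 0.207 and 0.331 CPM in the pro115 fish and 2.04, 2.095 and 3.49 CPM in the pro139 fish (log2 difference pro115 minus pro139 -3.05 ± 0.49 SE, edgeR adjusted p = 0.483). All 3 pro139 fish lay above every control, whose range was 0.112 to 0.604 CPM, and the pro115 fish lay within it. LOC112217104, again with no symbol, stood at 1.31, 0.585 and 0.817 CPM in the pro115 fish against 4.95, 7.43 and 11.9 CPM in the pro139 fish (log2 -3.14 ± 0.65 SE). LOC112258149 stood at 1.05, 0.620 and 1.06 against 2.40, 4.77 and 6.17 CPM (log2 -2.28 ± 0.48 SE). In both genes the groups did not overlap, and the spread among the pro139 fish was wide.

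The genes of rank 2 and 3 each had a neighbour of the same direction. LOC112231754 stood at 13.5, 18.05 and 16.1 CPM in the pro115 fish and 36.3, 51.8 and 38.1 CPM in the pro139 fish (log2 -1.40 ± 0.24 SE), and LOC112231759, whose annotated span overlaps it by 84 bases on the same strand, at 8.02, 8.85 and 12.121 and 24.9, 34.1 and 24.98 CPM. Reads in the shared stretch may have been counted for either gene, so they are not independent observations. LOC112267147 stood at 35.9, 27.7 and 21.2 against 63.0, 56.2 and 49.8 CPM (log2 -0.996 ± 0.19 SE), and LOC112267433, next to it on the same strand with 0 tested genes between, at 3.98, 4.48 and 3.02 against 15.3, 10.7 and 12.04 CPM. In all 4 genes the pro115 fish lay below the pro139 fish without overlap. The neighbours LOC112231759 and LOC112267433 were chosen after their values were seen.

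Among the 10, 3 had symbols. The stress-induced transcription factor atf3 stood at 51.0, 51.2 and 49.7 CPM in the pro115 fish, below every control (93.2 to 164 CPM), and at 81.8, 134 and 79.9 CPM in the pro139 fish (log2 -0.96 ± 0.20 SE, edgeR adjusted p = 0.483, DESeq2 adjusted p = 0.00724). The 3 pro115 fish were close together, and the gap lay between them and all 14 other fish. pro139A and pro139C were also below every control. paqr4a, a membrane protein of the progestin and adipoQ receptor family, stood at 8.30, 5.51 and 7.79 against 14.7, 12.86 and 14.0 CPM (log2 -0.94 ± 0.19 SE), with controls at 9.79 to 14.5 CPM. sanbr, named in mammals for a role in antibody class switching, stood at 3.88, 4.51 and 4.59 against 8.23, 10.2 and 9.74 CPM (log2 -1.12 ± 0.24 SE), with controls at 9.123 to 17.8 CPM. For both genes the pro115 fish lay below the whole control range, and for sanbr pro139A did too. The 2 genes of the 10 that were higher in pro115 had no symbol: LOC112266909 at 14.6, 12.8 and 10.9 against 7.16, 7.80 and 7.28 CPM and LOC112234920 at 15.6, 19.7 and 22.3 against 8.96, 11.9 and 11.04 CPM.

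**Figure D2:**
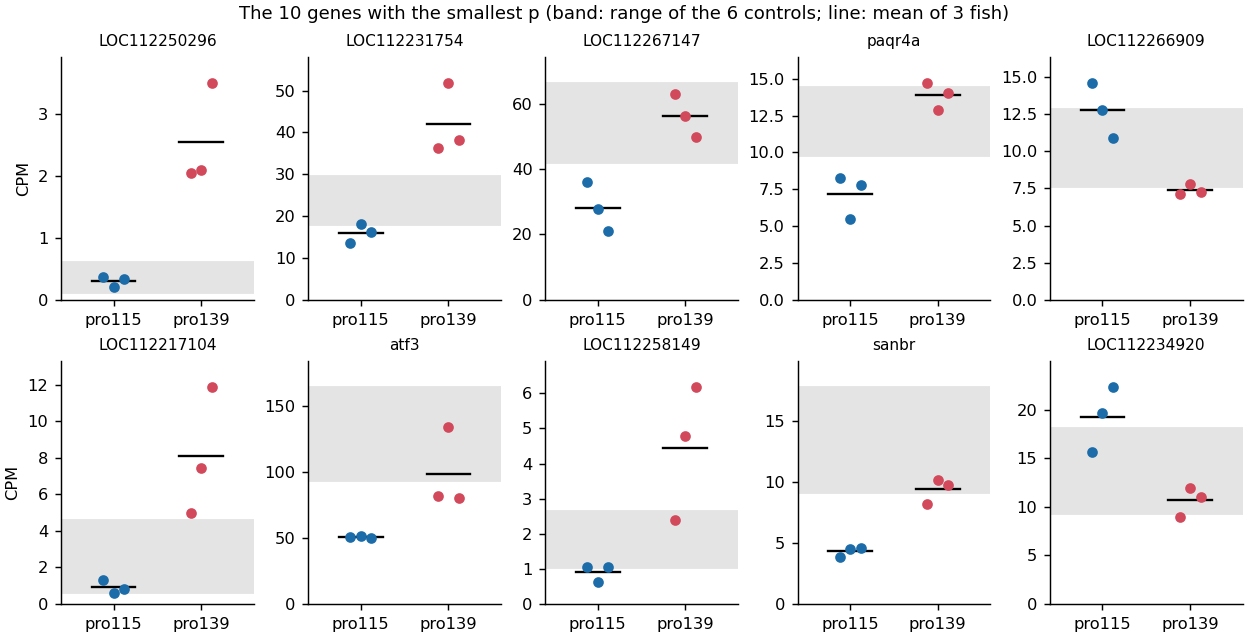
CPM of the 10 genes with the smallest p in the 3 fish of pro115 (blue) and the 3 of pro139 (red), each panel on its own axis from 0, with the mean of the 3 fish as a line and the range of the 6 controls as a grey band. Fish of different numbers do not overlap in any panel (15.1% of all tested genes), and 8 panels are higher in pro139 (47.0% of all tested genes). The genes were picked by a test of this same difference, so the lack of overlap says nothing further about them. All pro115 fish lie below the control band for atf3, paqr4a, sanbr and LOC112267147. pro139A and pro139C also lie below it for atf3, as does pro139A for sanbr.

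Exocrine pancreas genes had the widest gap of the 40 lists with at least 5 tested members, and 2 pro139 fish carried it. In a bulk sample such as these, more cells of a type and more RNA per cell cannot be told apart. Of 6 tested members, 6 had estimates higher in pro139 (against 47.0% of all tested genes) and 5 an unadjusted p under 0.05 with that side (against 4.46%). The median log2 difference was -3.75 against 0.03 over all tested genes. The carboxypeptidase cpb1 stood at 7.72, 5.99 and 5.21 CPM in the pro115 fish and at 49.8, 6.90 and 292 CPM in the pro139 fish (log2 -4.20 ± 0.95 SE, edgeR adjusted p = 0.483, DESeq2 adjusted p = 0.00375). pro139C was highest and pro139A next, while pro139B lay among the pro115 fish, so the groups overlapped. The elastase ela2 stood at 7.26, 7.75 and 4.77 against 43.5, 7.53 and 238 CPM, its neighbour ela2l at 4.72, 5.20 and 2.83 against 25.9, 2.65 and 134 CPM, and ela3l at 2.77, 2.34 and 1.68 against 13.5, 2.02 and 69.2 CPM. sycn, a protein of the zymogen granule, stood at 2.75, 4.17 and 2.87 against 21.96, 3.58 and 112 CPM. The same 2 fish were high in all of these, in the same order. The sixth member, the phospholipase pla2g1b, stood at 2.59, 3.203 and 3.07 against 3.01, 2.36 and 11.29 CPM and was high in pro139C alone.

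The summed CPM of the pancreas list was 27.8, 28.7 and 20.4 in the pro115 fish and 158, 25.04 and 857 in the pro139 fish, against 22.3 to 152 in the controls. pro139A therefore lay just above the highest control and pro139C at several times it. Controls also split on these genes: cpb1 stood at 46.7, 27.5 and 50.4 CPM in the 3 controls of number 12 and at 12.6, 6.83 and 4.62 CPM in the 3 of number 35. Without pro139B, edgeR called 28 genes, all higher in pro139, and 27 of them had the order of cpb1, with pro139C above pro139A and pro139A above 2 times every other fish. Of those 28, 5 were in the pancreas list. That order is by definition a difference between the numbers once pro139B is left out, so the 27 are no separate support. Without pro139C the median of the list was -1.87, and without both pro139B and pro139C it was -2.67.

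**Figure D3:**
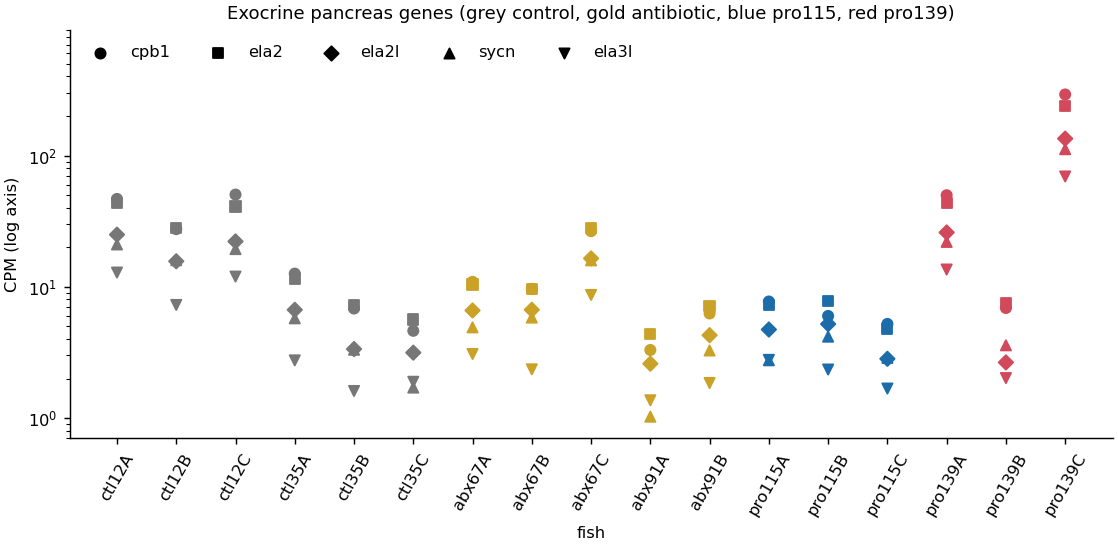
CPM on a log axis of the pancreas genes cpb1, ela2, ela2l, sycn and ela3l in all 17 fish, controls in grey, antibiotic fish in gold, pro115 in blue and pro139 in red. The 5 genes move together from fish to fish, pro139C is the highest of all fish and pro139A is close to the controls of number 12, while pro139B lies with the pro115 fish.

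The 88 genes that DESeq2 called were read against these values. The order of cpb1 was seen in 28 of the 88, and in 44 of all tested genes. The endoribonuclease endou, at 2.13, 1.83 and 1.83 against 10.8, 1.96 and 50.8 CPM, vmo1, named for a protein of the egg's vitelline membrane, at 1.27, 1.27 and 1.28 against 6.38, 1.2996 and 30.3 CPM, and cpa5, a carboxypeptidase of the list of neutrophil and mast cell markers, at 2.61, 1.69 and 1.83 against 8.93, 1.86 and 47.0 CPM, were among them. pgd, an enzyme of the pentose phosphate pathway, differed in that pro139A and pro139C were near each other, at 18.6, 0.690 and 28.7 CPM in the pro139 fish against 0.985, 0.0344 and 0.927 CPM in the pro115 fish and 0.252 to 0.894 CPM in controls. Of the 88, 40 spanned over 3 log2 units among fish of one number, for which no share over all genes was computed. The numbers did not overlap in 60 of the 88, against 15.1% of all tested genes. The 88 were picked by a test of this same difference, so the 60 say nothing further about them. Nor do the 28, because the order of cpb1 is itself such a difference. The DESeq2 count rested on single fish: it was 458 without pro115C, 96 without pro139B, 72 without pro139A, 56 without pro115A, 55 without pro115B and 43 without pro139C, and 22 of the last 43 were among the 88. All 88 had an edgeR unadjusted p under 0.05. endou, vmo1, cpa5 and pgd were chosen after their values were seen, except that cpa5 is the list member of smallest p.

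Genes of the lysosome-rich enterocyte lay higher in pro139. Of 13 tested members, 11 had estimates higher in pro139 (47.0% of all tested genes), with a median log2 difference of -0.38. An unadjusted p under 0.05 was found for 4, all higher in pro139 (4.46% of all tested genes). The uptake receptor cubn stood at 3705, 4436 and 3931 CPM in the pro115 fish and 5778, 5584 and 5862 CPM in the pro139 fish (log2 -0.51 ± 0.19 SE, edgeR adjusted p = 0.483), and its partner amn at 405, 519 and 416 against 660.5, 549 and 648 CPM. The groups did not overlap in either gene, and both lay inside the control ranges of 3431 to 6138 and 378 to 784 CPM. The related receptor lrp2b (megalin) stood at 355, 391 and 439.9 against 729.6, 478 and 647 CPM, without overlap, at an unadjusted p of 0.0561.

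Among the lysosomal enzymes of that list the values were mixed. Cathepsin A (ctsa) stood at 667, 926 and 733 CPM in the pro115 fish and 1135, 1130.1 and 1155 CPM in the pro139 fish (log2 -0.56 ± 0.21 SE), and gba, which splits glucosylceramide, at 56.2, 52.7 and 78.3 against 93.8, 74.5 and 95.1 CPM. The groups did not overlap for ctsa and overlapped for gba. The galactosidase glb1 stood at 3202, 3772 and 2327 against 4249, 3907 and 3853 CPM (log2 -0.37 ± 0.21 SE), while hexb, a lysosomal hexosaminidase, stood at 5353, 6051 and 4619.6 against 5019, 5011 and 5124 CPM (log2 0.08 ± 0.16 SE) and the protease ctsh at 3168, 4168 and 2033 against 2884, 2445 and 3495 CPM (log2 0.09 ± 0.27 SE). The last 2 showed no side beyond their error. Members with an unadjusted p under 0.05 and estimates higher in pro139 numbered 1, 5 and 3 without pro115A, pro115B and pro115C in turn. Without pro139A, pro139B and pro139C they numbered 2, 5 and 2. In these 6 fits the share of all tested genes with an unadjusted p under 0.05, on either side, was 6.55%, 6.53%, 15.7%, 6.91%, 9.61% and 6.55%. Without both pro139B and pro139C the median of the list was -0.45.

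Other genes of lysosomes outside the list, chosen after their values were seen, had smaller p. creg1, a secreted glycoprotein that also resides in lysosomes, stood at 566, 397 and 437 CPM in the pro115 fish and 1306, 847 and 1014 CPM in the pro139 fish (log2 -1.18 ± 0.28 SE, DESeq2 adjusted p = 0.0258). hps1, needed to form lysosome-related organelles, stood at 32.2, 36.3 and 35.8 against 57.6, 73.5 and 55.8 CPM (log2 -0.84 ± 0.20 SE), and ap5z1, of a late endosome adaptor complex, at 6.55, 7.30 and 5.52 against 11.2, 13.1 and 10.27 CPM (log2 -0.84 ± 0.19 SE). The groups did not overlap in any of the 3, and none of them passed edgeR's test (adjusted p = 0.483 for each). LOC112236405, which has no symbol and is not known here to be a gene of lysosomes, was also chosen after its values were seen. It stood at 3267, 3595 and 3564 CPM in the pro115 fish and 7186, 7204 and 5921 CPM in the pro139 fish, against 2799.8 to 7179.7 CPM in controls.

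Markers of the absorptive enterocyte were divided. Of 9 tested members, 3 had estimates higher in pro115 and 6 higher in pro139, and the median log2 difference was -0.06, which was 0.013 without pro115B, -0.21 without pro115C and 0.12 with index column as a factor. Aminopeptidase N (anpepa), which trims peptides at the brush border, stood at 799, 664 and 639.9 CPM in the pro115 fish and 1219, 1023 and 1256 CPM in the pro139 fish, without overlap (log2 -0.73 ± 0.30 SE, unadjusted p = 0.0272). The glucose transporter slc5a1 stood at 210.1, 237 and 266 against 284, 322 and 270.0 CPM, also without overlap. The difference of fabp6, whose values are given above, was log2 -0.80 ± 0.53 SE, and its groups overlapped. fabp2, the intestinal fatty acid binding protein, stood at 36.6, 151 and 15.1 against 19.98, 18.7 and 14.4 CPM and was far the highest in pro115B.

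Genes of fatty acid use and storage lay higher in pro139. Of 27 tested members, 23 had estimates higher in pro139 (47.0% of all tested genes), and the median log2 difference was -0.42. An unadjusted p under 0.05 was found for 6 members with estimates higher in pro139 (4.46% of all tested genes) and 1 (fabp2) higher in pro115 (5.07%). In 10 members the numbers did not overlap, with all pro139 fish higher (8.04% of all tested genes). For fat breakdown, acadvl, a mitochondrial acyl-CoA dehydrogenase, stood at 75.7, 95.3 and 121 against 141, 190.0 and 155 CPM. The lipases lipea and pnpla2, which release fatty acids from stored fat, stood at 6.88, 9.30 and 13.6 against 12.5, 22.2 and 15.9 CPM and at 2.81, 3.75 and 4.88 against 7.06, 5.81 and 5.30 CPM. Of these 3, only lipea overlapped between the numbers.

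The switch genes of the list had the same side. acacb, an acetyl-CoA carboxylase whose product restrains fatty acid entry into mitochondria, stood at 50.4, 55.6 and 51.3 CPM in the pro115 fish and 82.6, 85.0 and 88.7 CPM in the pro139 fish (log2 -0.70 ± 0.21 SE, edgeR adjusted p = 0.483). pdk4, a kinase that holds back pyruvate use, stood at 9.33, 6.30 and 8.59 against 16.4, 19.02 and 14.0 CPM (log2 -1.03 ± 0.35 SE), and the synthase fasn at 19.8, 14.6 and 12.65 against 31.4, 21.99 and 53.4 CPM (log2 -1.18 ± 0.56 SE). None of the 3 overlapped between the numbers, and fasn was highest in pro139C. acsl5, an acyl-CoA synthetase, showed no side beyond its error, at 238, 410.4 and 405 against 297, 390.3 and 343 CPM (log2 0.03 ± 0.20 SE). With pro115C left out, 12 members had an unadjusted p under 0.05 with estimates higher in pro139. In that fit 15.7% of all tested genes had an unadjusted p under 0.05, counting either side. Without both pro139B and pro139C the median of the list was -0.35.

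Transporters and enzymes of xenobiotic and bile acid handling lay higher in pro139 in 10 of 15 tested members (47.0% of all tested genes), with a median log2 difference of -0.44 and 3 members at an unadjusted p under 0.05 (4.46% of all tested genes). The median was -0.21 with index column as a factor and -0.10 with the pancreas list's mean as a covariate. The phospholipid exporter abcb4 stood at 375, 393 and 381 CPM in the pro115 fish and 575, 612 and 610.3 CPM in the pro139 fish (log2 -0.65 ± 0.22 SE). The conjugate exporter abcc2 stood at 305, 257 and 293 against 362, 513 and 354 CPM, and gclc, which limits glutathione synthesis, at 364, 217 and 357 against 573, 478 and 491 CPM. None of the 3 overlapped between the numbers. The bile acid importer slc10a2 did overlap, at 1698, 1917 and 2719.9 against 2624, 3204 and 2397 CPM. Without pro115B, 1 member had an unadjusted p under 0.05. Of 17 genes of cholesterol and sterol synthesis, 14 had estimates higher in pro139, with a median of -0.39 and 0 at an unadjusted p under 0.05. sc5d, a sterol desaturase, stood at 198, 88.3 and 205 against 246, 227.1 and 322 CPM, and hmgcs1, an early enzyme of the pathway, at 29.5, 8.64 and 56.7 against 43.8, 24.1 and 144 CPM. pro115B was lowest and pro139C highest for both, and the median of the list was -0.76 without pro115C, -0.59 without pro139B, -0.045 without pro115B, -0.10 without pro139C, -0.26 without both pro139B and pro139C, 0.11 with index column as a factor and 0.18 with the pancreas list's mean as a covariate. With the replicate block on the 6 probiotic libraries 6 of the 17 had an unadjusted p under 0.05, all higher in pro139. In that fit 1988 of the 28797 genes tested had an unadjusted p under 0.05 with estimates higher in pro139, against 1284 in the main fit. The block groups fish by letter, and whether the letters pair fish is not known.

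Cytosolic ribosomal protein genes lay higher in pro115. Of 39 tested members, 35 had estimates higher in pro115 (53.0% of all tested genes), 24 had an unadjusted p under 0.05 with estimates higher in pro115 (5.07% of all tested genes), and 27 did not overlap (7.09% of all tested genes). The median log2 difference was 0.37. rpl21 stood at 356, 391 and 292 CPM in the pro115 fish and 218, 250.0 and 245 CPM in the pro139 fish (log2 0.54 ± 0.16 SE, edgeR adjusted p = 0.483), and rpl7 at 947, 1024 and 801 against 621, 699.6 and 662 CPM (log2 0.48 ± 0.15 SE). The stalk protein rplp1 stood at 277, 392 and 228 against 179, 213 and 184 CPM (log2 0.64 ± 0.19 SE), and rps2 at 1854, 1585 and 1899 against 1345, 1468 and 1743 CPM (log2 0.23 ± 0.17 SE). The groups did not overlap for rpl21, rpl7 and rplp1 and overlapped for rps2. Controls ran from 232 to 368 CPM for rpl21 and from 677 to 963 CPM for rpl7. pro115B lay above and pro139A below the control range in both genes, and pro139C lay below it for rpl7.

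The ribosomal count moved with single fish and with the sequencing index. It was 13 without pro115A, 9 without pro139A and 16 without pro115B. The count over all genes with estimates higher in pro115 was 889, 958 and 854 in these fits, against 1460 with all fish. The number of ribosomal estimates higher in pro115 stayed between 34 and 38 of 39 in the fits that left out 1 probiotic fish. In the library names the index columns were 11, 10 and 10 for the pro115 fish and 9, 11 and 12 for the pro139 fish, so only column 11 occurred under both numbers. With index column as a factor, 35 of 39 ribosomal estimates were higher in pro115 and the median was 0.28. In that fit 0 ribosomal genes had an unadjusted p under 0.05 with estimates higher in pro115, and the count over all genes on either side was 910 (3.16%). With the pancreas list's mean as a covariate, 9 ribosomal genes did, and the count over all genes on either side was 1302 (4.52%). With index column as a factor, the lists described above had 0 (lysosomal enterocyte), 1 (fatty acid use and storage), 0 (xenobiotic and bile acid handling) and 0 (exocrine pancreas, median -2.16) members at an unadjusted p under 0.05 with estimates higher in pro139, and the covariate left 0, 3 and 1 in the first 3 lists. It is made of the pancreas list, so it says nothing of that list. The median of the lysosomal enterocyte list was -0.24 with index column as a factor. The 52 genes of the mitochondrial ribosome had a median of -0.01 with 0 at an unadjusted p under 0.05. For the 36 genes of oxidative phosphorylation the median was -0.04, and again 0 had an unadjusted p under 0.05.

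**Figure D4:**
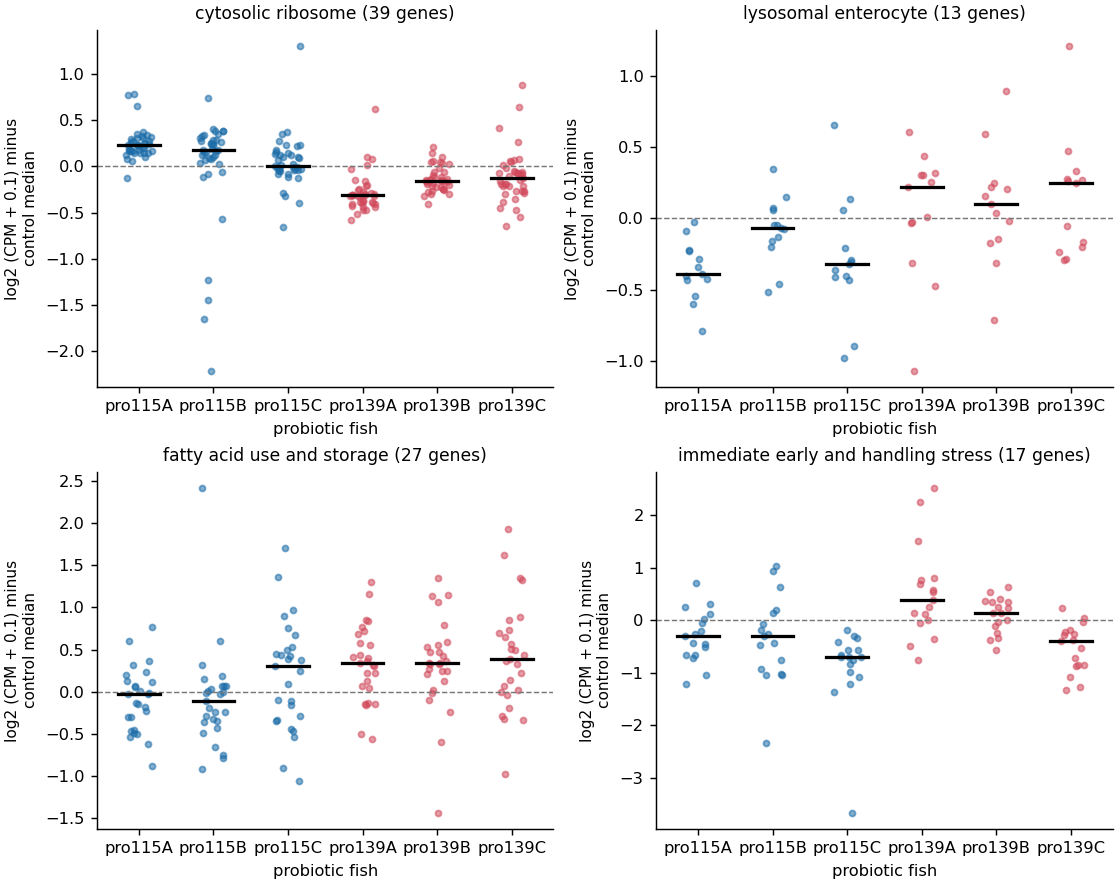
Each point is a tested gene of the list, as log2 of its CPM plus 0.1 minus the same for the median of the 6 controls (dashed line at 0), with a black bar at the median of the list in each of the 6 probiotic fish, pro115 in blue and pro139 in red. Ribosomal genes lie higher in the pro115 fish, lysosomal enterocyte and fatty acid genes lie higher in the pro139 fish with pro115C nearest to them for fatty acids, and immediate early genes are highest in pro139A and lowest in pro115C.

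Immediate early genes, which cells switch on soon after a stimulus, lay higher in pro139 in 14 of 17 tested members (47.0% of all tested genes), with a median log2 difference of -0.56. The summed CPM of the list was 636, 598 and 514 in the pro115 fish and 1061, 858 and 550 in the pro139 fish. Controls ran from 649 to 947. By this sum pro139C lay among the pro115 fish and, like them, below every control. 5 members had an unadjusted p under 0.05 with estimates higher in pro139 (4.46% of all tested genes) and 1 with an estimate higher in pro115. The first was atf3, given above. jun, a subunit of the AP-1 factor, stood at 14.7, 11.30 and 14.8 CPM in the pro115 fish and 40.8, 17.9 and 20.4 CPM in the pro139 fish (log2 -0.95 ± 0.30 SE), and the phosphatase dusp1 at 0.563, 0.207 and 0.0221 against 4.27, 1.88 and 0.537 CPM. The transcription factors klf4 and klf6a stood at 0.684, 0.551 and 0.662 against 6.92, 1.70 and 1.18 CPM and at 83.4, 74.6 and 90.4 against 176, 122 and 85.8 CPM. pro139A was the highest of the 6 fish for jun, dusp1, klf4 and klf6a, and dusp1 and klf6a overlapped between the numbers. ier2b stood at 107, 86.6 and 57.0 against 211, 122.9 and 80.6 CPM and overlapped. zfp36l1a, an RNA-binding protein, stood at 163, 163 and 146 against 197, 191 and 136 CPM (log2 -0.15 ± 0.15 SE). egr3 was the member of the opposite side, at 3.24, 5.06 and 1.72 against 1.51, 1.72 and 2.54 CPM. Without pro139A, 2 members had an unadjusted p under 0.05 and the median was -0.29. With index column as a factor there was 1, the median was -0.23 and 10 of 17 estimates were higher in pro139. Without both pro139B and pro139C the median was -0.83.

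Genes of the heat shock and unfolded protein response had estimates higher in pro139 in 21 of 29 tested members (47.0% of all tested genes), with a median of -0.30 and 2 at an unadjusted p under 0.05 with that side (4.46% of all tested genes). The median was -0.59 without pro115C, -0.17 without pro115B and -0.18 with the pancreas covariate. ddit3, a stress transcription factor, stood at 22.3, 27.4 and 25.2 CPM in the pro115 fish and 51.6, 35.3 and 31.4 CPM in the pro139 fish (log2 -0.66 ± 0.20 SE), and xbp1, a factor of the secretory pathway, at 165, 151 and 146 against 174, 213 and 191 CPM (log2 -0.32 ± 0.14 SE). Neither overlapped between the numbers. The chaperone hsp90ab1 stood at 2109, 2152 and 2597 against 1978, 2495 and 2481 CPM (log2 -0.02 ± 0.17 SE).

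Most hormone, nerve, vessel and muscle markers had estimates higher in pro115, but the numbers overlapped in the mean log2 CPM of each of these lists. The exact permutation p of that mean between the numbers was 0.2 for enteroendocrine genes and 0.3 for enteric neurons and glia. It was 0.4 for endothelial genes and 0.3 for smooth muscle genes. Of 8 enteroendocrine genes, 7 had estimates higher in pro115 (53.0% of all tested genes) and 3 an unadjusted p under 0.05 with that side (5.07% of all tested genes), with a median log2 difference of 0.54. The peptide gene adcyap1a (PACAP) stood at 109.6, 165 and 72.6 CPM in the pro115 fish and 51.2, 60.7 and 47.4 CPM in the pro139 fish (log2 1.13 ± 0.33 SE, edgeR adjusted p = 0.483). The granule protein chga stood at 4.26, 8.64 and 3.29 against 2.78, 3.13 and 2.29 CPM and the opioid precursor penka at 23.2, 43.6 and 13.6 against 11.02, 20.3 and 5.42 CPM. pro115B was the highest fish in each of the 3, and only penka overlapped between the numbers. Without pro115B, 1 member had an unadjusted p under 0.05 and the median was 0.51.

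All 8 endothelial genes tested had estimates higher in pro115 (53.0% of all tested genes), with a median of 0.51 and 2 at an unadjusted p under 0.05 (5.07% of all tested genes). vwf, the clotting protein stored in endothelial cells, stood at 8.58, 11.6 and 5.32 CPM in the pro115 fish and 2.17, 5.36 and 1.81 CPM in the pro139 fish (log2 1.45 ± 0.40 SE), and plvapa, of endothelial pores, at 174, 317 and 92.6 against 96.8, 124 and 103 CPM. pro115B was highest for both and pro115C overlapped with pro139 fish. Without pro115B the median was 0.19 with 6 of 8 estimates higher in pro115, and without pro115C it was 0.84. In the fit without pro115C 6 members had an unadjusted p under 0.05, as did 15.7% of all tested genes. With index column as a factor the median was 0.30.

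Of 6 markers of enteric neurons and glia, 5 had estimates higher in pro115 (53.0% of all tested genes) and 2 an unadjusted p under 0.05 with that side (5.07% of all tested genes), with a median of 0.48 that was 0.27 with the pancreas covariate. The neuronal RNA-binding protein elavl3 stood at 7.68, 3.31 and 3.82 CPM in the pro115 fish and 2.95, 2.63 and 1.99 CPM in the pro139 fish, and the receptor ret at 11.7, 12.8 and 10.5 against 8.001, 8.01 and 7.27 CPM, both without overlap. nos1, the neuronal nitric oxide synthase, stood at 24.9, 13.9 and 13.2 against 11.2, 13.6 and 4.74 CPM. The count was 0 without pro115A, 0 without pro139C and 1 without pro115B. All 5 smooth muscle genes had estimates higher in pro115 (53.0% of all tested genes), with a median of 0.42 and 0 at an unadjusted p under 0.05. That median was 0.14 with the pancreas covariate, 0.20 with index column as a factor, 0.20 without pro115A and 0.22 without pro139C. Smoothelin (smtna) stood at 68.3, 48.0 and 45.3 against 31.3, 41.2 and 18.3 CPM without overlap, and tpm2, a tropomyosin, at 1477, 1113 and 1086 against 1125, 1253 and 689 CPM with overlap. The summed CPM of the smooth muscle list was 2228, 1543 and 1611 in the pro115 fish and 1551, 1747 and 981 in the pro139 fish, against 1374 to 3816 in controls.

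**Figure D5:**
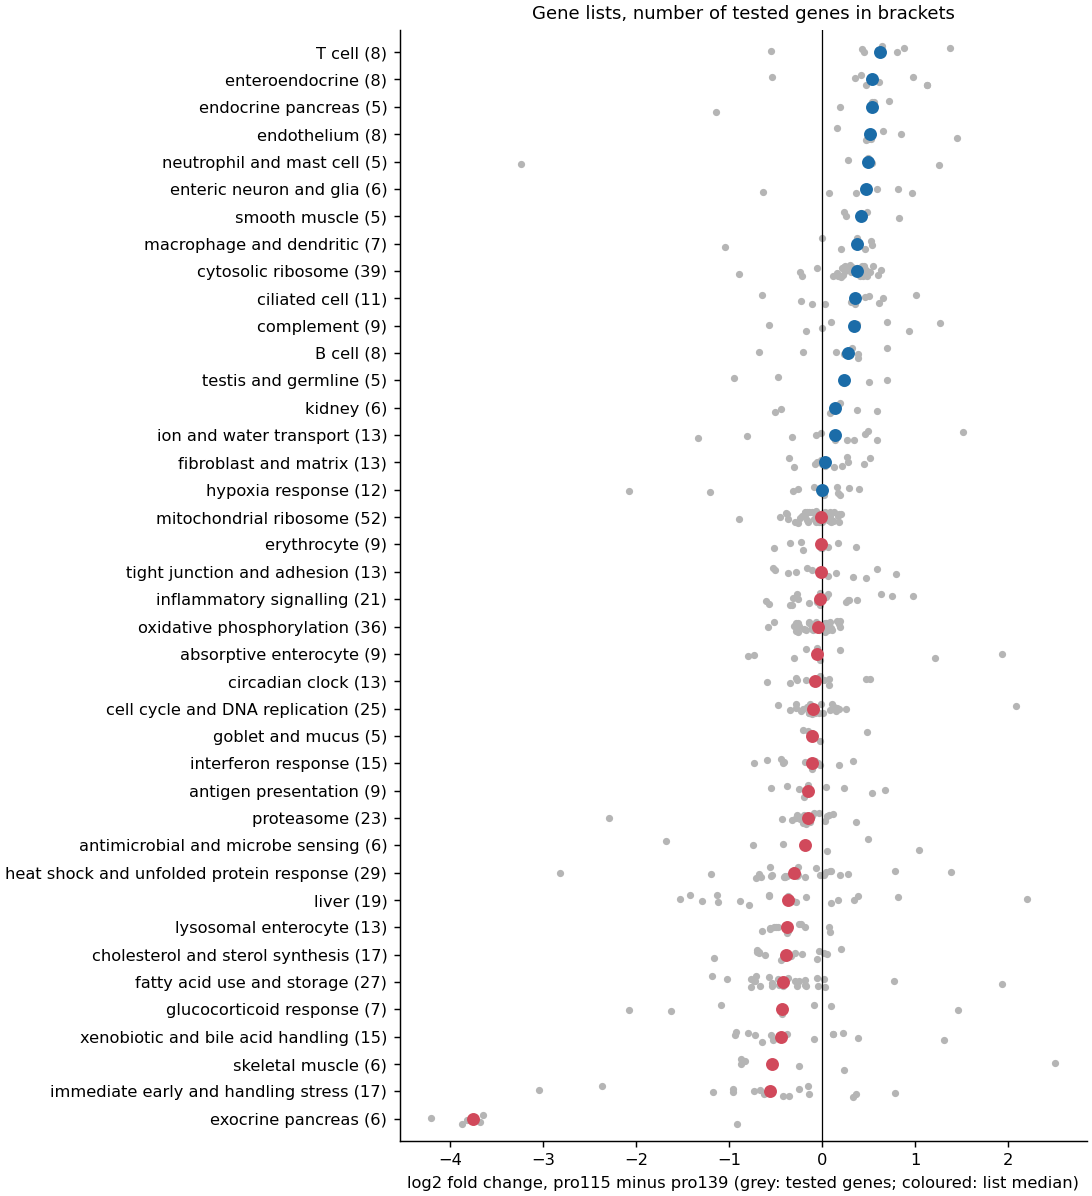
Log2 differences, pro115 minus pro139, of every tested gene (grey) and the median (coloured, blue above 0 and red below) of the 40 lists with at least 5 tested members, the number tested in brackets. Exocrine pancreas lies apart at -3.75, and the other medians run from -0.56 for immediate early genes to 0.62 for T cell markers.

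Immune lists were divided, and markers of immune cells had medians above 0 that rested on pro115B. Of 8 T cell genes, 7 had estimates higher in pro115 (53.0% of all tested genes) and 1 an unadjusted p under 0.05 with that side (5.07% of all tested genes). The median log2 difference of 0.62 became -0.30 without pro115B, 0.27 in limma-voom and 0.34 with the replicate block on 6 libraries. The receptor subunit cd3e stood at 15.1, 43.9 and 12.74 CPM in the pro115 fish and 16.9, 12.2 and 23.3 CPM in the pro139 fish, and cd8a, of cytotoxic T cells, at 2.79, 17.4 and 5.36 against 5.30, 3.13 and 8.27 CPM. pro115B was the highest of the 6 fish for both. The other pro115 fish lay among those of pro139 for cd3e, and for cd8a pro115A lay below them all. gata3, a lymphocyte transcription factor, differed: it stood at 5.17, 6.41 and 7.02 against 3.56, 3.82 and 2.72 CPM, without overlap (log2 0.88 ± 0.26 SE, edgeR adjusted p = 0.483).

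The markers of myeloid cells and genes of complement named here were highest in pro115B, except cpa5. Of 7 macrophage and dendritic genes, 6 had estimates higher in pro115 and 0 had an unadjusted p under 0.05, with a median of 0.38 that was 0.026 without pro115B, 0.67 without pro115C, 0.58 without pro139C, 0.71 with index column as a factor and 0.69 with the pancreas covariate. The macrophage genes spi1a and mpeg1 stood at 5.47, 8.13 and 3.93 against 3.84, 3.08 and 5.23 CPM and at 58.3, 84.2 and 40.1 against 46.6, 36.5 and 49.3 CPM. Of 5 neutrophil and mast cell genes, 4 had estimates higher in pro115, and the median of 0.50 became -0.055 without pro115B and 0.77 without pro115C. On each side 1 of them had an unadjusted p under 0.05 (5.07% and 4.46% of all tested genes). cpa5, given above, was the one higher in pro139, and it was highest in pro139C at 47.0 CPM. Lysozyme (lyz), the most abundant of the list, stood at 258, 538 and 190.1 against 207, 235 and 255 CPM. Of 9 complement genes, 7 had estimates higher in pro115 (53.0% of all tested genes) and 1 an unadjusted p under 0.05 with that side (5.07% of all tested genes). Their median of 0.34 was 0.051 without pro115B, 0.21 without pro115A, 0.23 without pro139C, 0.59 without pro115C and 0.21 with the pancreas covariate. The complement protease cfd stood at 235, 351 and 141 against 129.9, 192 and 125 CPM, and c6, of the membrane attack complex, at 776, 908 and 434 against 578, 630.4 and 463 CPM. pro115B was the highest fish for spi1a, mpeg1, lyz, cfd and c6.

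Apart from complement, with the median of 0.34 given above, the lists of immune pathways had medians below 0. Of 15 interferon response genes, 13 had estimates higher in pro139 (47.0% of all tested genes) with a median of -0.11, which was 0.060 without pro139B, -0.29 without pro115B, -0.31 without pro139C and -0.43 with the pancreas covariate. The RNA sensor ifih1 stood at 101.1, 107 and 111 CPM in the pro115 fish and 103, 146 and 100.7 CPM in the pro139 fish, with overlap. The 1 interferon gene with an unadjusted p under 0.05 was irf2, an interferon regulatory factor, on the other side (5.07% of all tested genes). It stood at 33.7, 40.3 and 35.2 against 27.4, 31.3 and 28.2 CPM without overlap. Of 9 antigen presentation genes, 4 had estimates higher in pro115 and 5 higher in pro139, with a median of -0.15 that lay between -0.23 and -0.043 without single fish and was 0.22 without both pro139B and pro139C. Its 2 members with an unadjusted p under 0.05 were higher in pro115 (5.07% of all tested genes): the protease ctss2.1 (cathepsin S) at 47.3, 66.6 and 45.1 against 26.5, 38.7 and 34.3 CPM (log2 0.68 ± 0.19 SE) and the invariant chain cd74b at 126, 168 and 69.6 against 86.8, 71.8 and 91.1 CPM. canx, the chaperone calnexin and the most abundant member, was on the other side at 372, 279 and 497 against 449, 550.2 and 494 CPM, with overlap.

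Among 21 inflammatory genes, 9 had estimates higher in pro115 and 12 higher in pro139, with a median of -0.02. An unadjusted p under 0.05 was found for 2, both higher in pro115 (5.07% of all tested genes). They were the cytokine il6 at 1.49, 2.48 and 1.55 against 1.06, 1.2996 and 0.895 CPM and the chemokine cxcl14 at 17.1, 34.7 and 11.8 against 13.6, 13.0 and 5.67 CPM. The NF-kB inhibitor nfkbiab, the most abundant member, stood at 45.7, 51.8 and 29.3 against 55.4, 56.4 and 40.2 CPM, with overlap. pro115B was the highest fish for ctss2.1, cd74b, il6 and cxcl14. The 6 antimicrobial genes were evenly divided, with a median of -0.18 that was -0.31 without pro115A and 0.082 without both pro139B and pro139C. Of these the oxidase duox2, which makes hydrogen peroxide at the epithelial surface, stood at 2.31, 1.86 and 1.28 against 2.87, 6.1 and 8.46 CPM (log2 -1.67 ± 0.55 SE, unadjusted p = 0.00816), and the groups did not overlap.

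Liver markers were high in single fish of either number. Of 19 tested members, 13 had estimates higher in pro139 (47.0% of all tested genes). Only tfa had an unadjusted p under 0.05, with an estimate higher in pro115 (5.07% of all tested genes). The median of -0.36 was 0.90 without pro139B, 0.88 without both pro139B and pro139C, 0.010 in limma-voom and between -1.08 and -0.20 without each other fish. Transferrin (tfa) stood at 11.8, 65.8 and 4.55 CPM in the pro115 fish and 2.52, 12.70 and 2.70 CPM in the pro139 fish and was highest in pro115B. The fibrinogen chain fgg stood at 2.79, 2.69 and 1.15 against 1.21, 9.97 and 1.15 CPM, fetub, a plasma protease inhibitor, at 3.66, 1.14 and 0.331 against 0.480, 12.09 and 1.31 CPM, and the haem carrier hpxb at 0.684, 0.241 and 0.0883 against 0.166, 2.47 and 0.394 CPM. These 3 were highest in pro139B. The summed CPM of the 19 tested liver genes was 59.15, 141 and 34.4 in the pro115 fish and 32.8, 101.5 and 29.1 in the pro139 fish, against 34.2 to 68.9 in controls, and the part of liver RNA in other results was not tested.

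Genes of the hypoxia response were evenly divided, with 6 of 12 estimates on each side and a median of 0.0021. pfkfb3, an enzyme that makes an activator of glycolysis and the member of smallest p, stood at 10.5, 11.6 and 6.93 CPM in the pro115 fish and 27.6, 22.8 and 16.2 CPM in the pro139 fish, without overlap (log2 -1.20 ± 0.31 SE, unadjusted p = 0.00169). ndrg1a, the most abundant, stood at 616, 1030.3 and 529 against 468, 737 and 578 CPM. Of 7 genes of the glucocorticoid response, 5 had estimates higher in pro139, with a median of -0.43 that was -0.080 without pro139A, -0.68 without pro115C, -0.65 without pro139C, -1.09 without both pro139B and pro139C, -0.053 with index column as a factor, -0.75 in limma-voom and -0.75 with a minimum mean of 1 CPM. pfkfb4b, of the same enzyme family as pfkfb3, stood at 56.8, 15.9 and 163 against 429, 17.6 and 549.8 CPM, high in pro139A, pro139C and pro115C. On the other side of that list, fkbp5, a chaperone of the glucocorticoid receptor that glucocorticoids induce, stood at 36.1, 144 and 24.02 against 17.8, 39.6 and 16.5 CPM and was highest in pro115B, the 1 member with an unadjusted p under 0.05. Of 13 genes of tight junctions and adhesion, 7 had estimates higher in pro139, with a median of -0.02. The junction protein f11r.1 stood at 42.4, 32.6 and 43.2 against 54.2, 53.8 and 62.01 CPM. cdh17, an intestinal cadherin, stood at 792, 709.5 and 1070.3 against 1197, 1089 and 1366 CPM, and neither gene overlapped between the numbers. Of the 40 lists, 14 held no member with an unadjusted p under 0.05, among them cell cycle genes (25 tested, median -0.10), proteasome (23 tested, median -0.15), B cell (8 tested, median 0.28) and circadian clock (13 tested, median -0.08).

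Several genes without a symbol were near 0 in one set of fish and abundant in single fish of the other, and these were chosen after their values were seen. LOC112214631 stood at 42.5, 2.72 and 23.9 CPM in the pro115 fish and 0.845, 0.955 and 1.40 CPM in the pro139 fish, with controls at 0.331 to 7.47 CPM. LOC112264739 stood at 4.001, 0.0344 and 27.8 against 0.248, 0.424 and 0.322 CPM and LOC112245111 at 3.196, 0.138 and 41.5 against 0.464, 0.530 and 0.161 CPM. In the last 2, pro115A and pro115C were high and pro115B was not, and without pro115B LOC112264739 was the 1 gene edgeR called (log2 5.59, edgeR adjusted p = 0.0315). LOC112234151 stood at 2.45, 0.585 and 10.2 against 0.149, 0.265 and 0.179 CPM and followed the same order of fish. The highest control stood at 3.04 CPM for LOC112234151, 0.803 CPM for LOC112245111 and 0.450 CPM for LOC112264739. The highest antibiotic fish stood at 2.66, 14.4 and 0.291 CPM for these genes. LOC112231037 was on the other side, with 0.0402, 0 and 0 CPM in the pro115 fish, so near 0 that no fold is given, and 1.89, 0.477 and 1.11 CPM in the pro139 fish. Controls ran from 0.025 to 0.849 CPM for LOC112231037. The filter let a gene be tested on the counts of 1 number alone, so its presence among the tested genes is no support. Without pro115C the 1 gene called was LOC112265459, which stood at 0.0402, 0.0689 and 3.82 against 7.26, 5.99 and 1.88 CPM (log2 -6.53, edgeR adjusted p = 0.0222).

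Of genes chosen after their values were seen, 2 more lay apart without overlap. metap2, which removes the first methionine from new proteins, stood at 151, 136 and 146 CPM in the pro115 fish and 98.3, 93.8 and 109.6 CPM in the pro139 fish (log2 0.52 ± 0.12 SE, edgeR adjusted p = 0.483, DESeq2 adjusted p = 0.00815), with controls at 97.1 to 136 CPM. LOC112241347 stood at 22.2, 25.4 and 10.95 against 142, 66.8 and 29.3 CPM, with all pro115 fish below every control (44.1 to 87.2 CPM). pro139C was below every control too, and pro139A was above them. The antibiotic fish ran from 23.7 to 153 CPM. A salmonid genome holds many near-identical gene copies, so each symbol here may stand for 1 of several copies between which reads could have been split.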

How the data were processed

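Hindgut RNA was sequenced as 100-base read pairs on a NovaSeq, per the labels' protocols. Per the submitters' processing notes, the authors used Trimmomatic 0.38, HISAT2 and featureCounts. Neither other versions nor the genome build, the strand setting or the treatment of multi-mapping reads were found in those notes or the labels. The deposited table holds raw counts for 42555 entries. The 1 entry without an identifier was left out, with 0.155 to 0.504% of counts in the probiotic libraries. The table itself names 4401 genes by symbol. Of 38153 LOC identifiers, 30285 were found in the RefSeq gene table of Otsh_v2.0, used for names alone, and 6084 gained a symbol there.

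Genes that edgeR's filterByExpr kept in the 6 probiotic libraries were tested (28797, of which 8553 have a symbol). TMM scaling and edgeR's robust quasi-likelihood F-test (2-sided, Benjamini-Hochberg over all genes tested, called under 0.05) were run on all 17 libraries with the 6 title numbers as groups. SE is the log2 difference over the root of F. Log2 CPM used a prior count of 2. Alternatives were DESeq2, limma-voom, other scalings and filters, a replicate block, index column, a pancreas covariate and leaving out fish. The letters were not taken to pair fish. The fits, tested on simulated data, ran in R 4.3.3 with DESeq2 1.42.0, edgeR 4.0.16 and limma 3.58.1. DESeq2 gave no adjusted p to 87 genes.

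The fish, the 41 gene lists and the tests were chosen with earlier results of these data known. The naming rule was the 10 genes of smallest p and, of each list described by its counts with members named, the member of smallest p and that with the highest CPM. Other list members are named as examples, and other genes were chosen after their values were seen. No list test was run, and 1 gene that was tested is not reported here.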

Additional observations from a re-analysis of the deposited data

Results flagged for a closer look

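The deposited table has 1 entry without a gene identifier, which entered no comparison. In pro115B it held 0.504% of all counts, above the highest control at 0.422%. The probiotic fish of pro115 ran from 0.161 to 0.504% and those of pro139 from 0.155 to 0.210%, and the controls ran from 0.172 to 0.422%. The difference between the numbers, 0.343 ± 0.173% in pro115 and 0.175 ± 0.030% in pro139 (SD, n = 3 each), gave an exact permutation p of 0.3.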

How the results depend on the processing

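The count of 0 genes called held under RLE and upper quartile scaling, limma-voom, 3 other filters, no robust fit, the 6 probiotic libraries alone, index column and the pancreas covariate. DESeq2 called 88 (18 higher in pro115 and 70 higher in pro139), and, added after seeing the data, 196 on the 6 probiotic libraries alone, 42 of them among the 88. Leaving out 1 fish, edgeR called 0 to 28 genes, 0 to 1 higher in pro115 and 0 to 28 higher in pro139, and the likeness of fish of one number ranged from -0.0041 to 0.013. What the letters A to C mark is not stated, and whether they pair fish is not known. Deviations of same-lettered fish correlated at 0.0671, 0.169 and 0.0702, and each letter correlated best with its own in 3 of 3. The deviations were taken from the mean of each number, so the 3 matches are not independent, and they were not tested. With letter as a replicate block edgeR called 0 genes on 17 libraries and 0 on the 6, with 2513 and 3582 at an unadjusted p under 0.05. Over 20 settings, 2181 of 2218 log2 differences of the 111 named genes kept their side and 37 turned. With index column as a factor the turned values were 0.98 for pfkfb4b, 0.38 for hmgcs1, 0.017 for hsp90ab1, -0.057 for ndrg1a and -0.10 for acsl5. With the pancreas covariate they were 0.32 for pfkfb4b, 0.44 for pla2g1b, 0.31 for ela2l, 0.31 for hmgcs1, -0.0304 for tpm2 and -0.022 for acsl5. With the block on 6 libraries acsl5 stood at -0.0032. Without both pro139B and pro139C, fetub stood at 1.84, hpxb at 1.04, fgg at 0.87, ifih1 at 0.042 and hsp90ab1 at 0.21. Leaving out 1 fish, acsl5 ranged from -0.093 to 0.23, hsp90ab1 from -0.13 to 0.036, ifih1 from -0.23 to 0.061, ndrg1a from -0.054 to 0.47, cd8a from -0.45 to 1.005, cd3e from -0.33 to 0.74, ctsh from -0.18 to 0.31, lyz from -0.055 to 0.77, vil1 from -0.53 to 0.013, hexb from -0.019 to 0.17, fetub from -2.69 to 0.95, hpxb from -2.64 to 0.30, fgg from -1.33 to 0.90 and pla2g1b from -1.28 to 0.13. The cause of these turns was not tested. With 0 calls, differences between the numbers are neither shown nor excluded, and this holds for large estimates such as that of cpb1 (log2 -4.20) too.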
